A study of Saccharomyces cerevisiae with 4 samples.

Results

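The genes described here are 36 nuclear genes for the electron transport chain and the ATP synthase of Saccharomyces cerevisiae mitochondria, taken from the table by symbol and set beside the 6207 yeast rows in all. The cells were a hog1 mutant, HOG1 being the gene of the kinase that yeast uses to answer high osmolarity. Zymolyase-treated cells had been given 5 units/ml of Zymolyase 100T, an enzyme preparation that digests the yeast cell wall, and the untreated cells were the other part of the same culture. Growth was in YEPD, a rich glucose medium, at 24 °C, RNA was taken at 3 h, and the hog1 mutation was shared by both groups. RNA of 2 cultures was hybridised to 4 2-colour arrays, with the treated RNA in Cy3 on arrays 1 and 3 and in Cy5 on arrays 2 and 4. Wild-type cells were not analysed here, so the values do not show what depends on the hog1 mutation, and HOG1 had a value on 0 of the 4 arrays.

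In yeast mitochondria electrons pass from NADH dehydrogenases and complex II through ubiquinone to complex III, then through cytochrome c to complex IV, which reduces oxygen. The proton gradient built by complexes III and IV drives the ATP synthase, whose catalytic F1 head is tied by stalks to the membrane part Fo. In glucose medium yeast ferments, and most genes of this chain are held down by glucose repression and depend on the Hap transcription factor complex and on haem.

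A log2 ratio above 0 is read here as higher in treated cells. This direction is likely and not stated. The mating genes PRM1 and FIG1 and the filamentous growth gene PGU1 are all nearly silent in unstimulated cells. In this reading they had mean log2 ratios of 6.51 ± 3.01, 5.40 ± 0.88 and 5.38 ± 0.72. If the ratio ran the other way, each sign would be turned while sizes and p-values held. Arrays 1 to 4 held values for 2794, 4162, 5322 and 5127 yeast rows, and 2715 rows with a value on all 4 were tested. Across rows, arrays of the same dye orientation had Spearman correlations of 0.364 and 0.418, against −0.0581 to 0.162 for arrays of opposite orientation. Pearson correlations were 0.548 and 0.641 against 0.169 to 0.561, and these ranges overlap. Ratios that rest on 1 orientation can thus carry a dye effect. Which arrays came from 1 culture is not labelled. Each ratio compares labelled total RNA of both groups, so a change in every cell and a change in the share of cells that hold the transcript cannot be told apart. Errors are the SD over 4 arrays, and adjusted p-values are from limma over all 2715 rows.

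Of the 36 genes, 34 had a row, and ATP18 and TIM11, for small subunits of Fo, had none. Of the 34, 29 had a value on every array and were tested, 3 had values on 3 arrays and 2 on 2 arrays. RCF2 rose 1.87-fold in the treated cells, and no other tested member passed the threshold in either direction. The count of 1 of 29 called higher compares with 2.03% of all tested rows, and that of 0 lower with 0.184% (2.21% in either direction). Most tested members had means a little below 0, with QCR6 and CYC1 lowest at −0.74 and −0.70: 25 of the 29 means were below 0 (86.2%), against 59.4% of all tested rows. The median of the 29 means was −0.20 on the log2 scale, against −0.05 for all tested rows, and 23 of the 29 means were under 0.3 in size. Without array 3 the members' median was −0.12. An unadjusted p under 0.05 was reached by 4 members, RCF2, QCR6, CYC1 and ATP3, which is 13.8% of those tested and near the 14.7% of all rows.

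**Figure D1:**
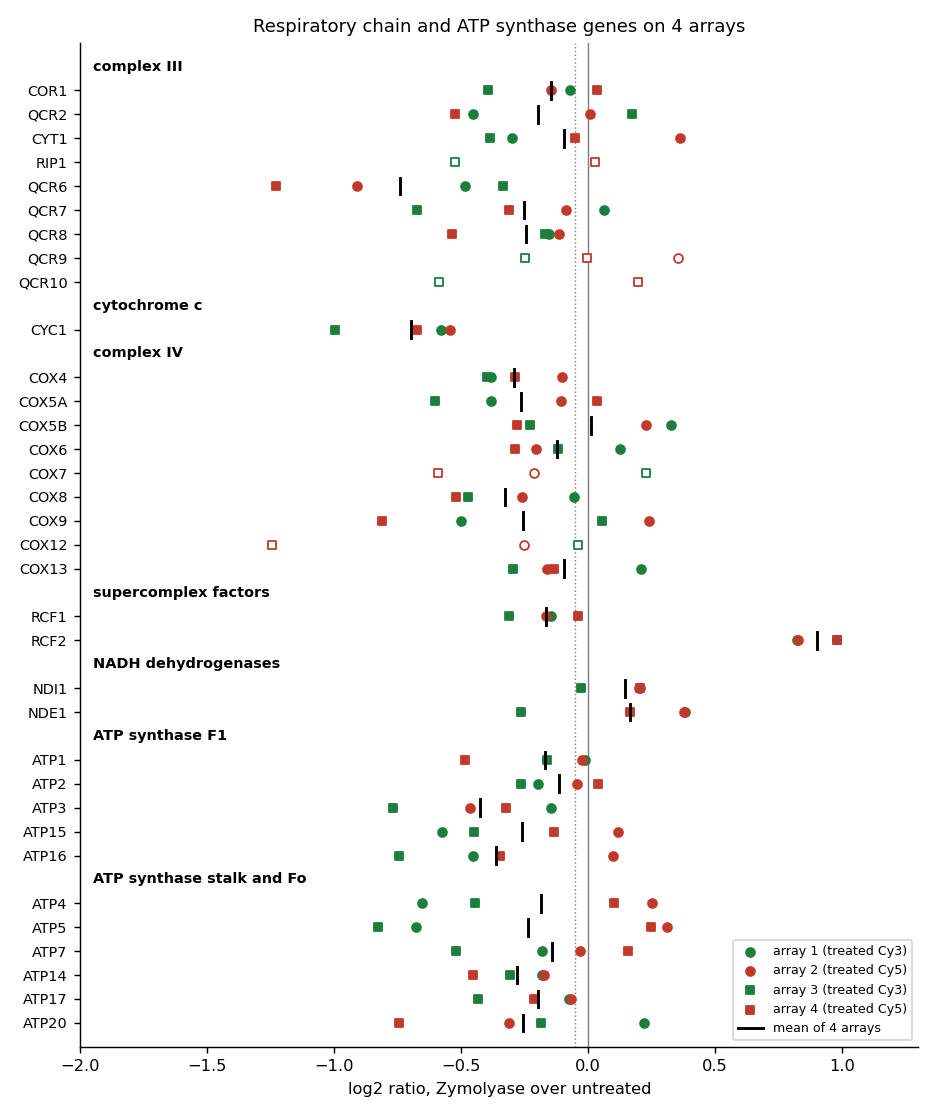
Log2 ratios (Zymolyase over untreated, x axis) of the 34 members with a row, by group, on each array; green marks arrays with the treated RNA in Cy3, red in Cy5, open symbols genes with fewer than 4 values, black bars the mean of 4 arrays, and the dotted line the median of all tested rows (−0.05). RCF2 alone has its 4 values together well above 0 (0.82 to 0.98), and CYC1 and QCR6 have all 4 below 0.

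RCF1 and RCF2 are members of the Hig1 family that bind complex IV and help to join it with complex III into supercomplexes. RCF2 had log2 ratios of 0.82, 0.82, 0.98 and 0.98 on arrays 1 to 4. All 4 arrays were above 0 and close together, with a mean of 0.90 ± 0.09 (SD, n = 4 arrays; adjusted p = 0.0461 by limma). Among tested rows, 9.83% had all 4 values above 0, and 70 of 2715 had a larger mean than RCF2. The mean over the Cy5-treated arrays was 0.903 and over the Cy3-treated arrays 0.900, so its ratio was as large in either dye orientation.

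RCF1, the other Hig1 protein of this pair, had −0.15, −0.17, −0.31 and −0.04 on arrays 1 to 4, with a mean of −0.17 ± 0.11 and an adjusted p of 0.614 by limma. Its values were below 0 on every array and did not overlap those of RCF2. The difference RCF2 minus RCF1 was 0.97, 0.99, 1.29 and 1.02 on the 4 arrays, a mean of 1.07 ± 0.15. The arrays come from 2 cultures, for which an exact two-sided sign-turn test cannot go below p = 0.5, the value it gave, so the difference is given as a description. This pair and COX5B with COX5A were the 2 pairs compared in this way.

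The call of RCF2 was close to the threshold. It was lost when the arrays were put on an equal scale (adjusted p = 0.0817), when rows with missing values entered the fit (0.0655), without array 2 (0.181) and without array 4 (0.0866), all by limma. The mean ratio itself stayed between 0.88 and 0.95 over the 15 other ways of fitting, of which 11 called it. Of these 11, arrays 1+2 and 3+4 as pairs alone gave the same adjusted p of 0.0461 by limma. The larger p kept for RCF2 came from that pairing, so this call was fixed in advance. With arrays 1+4 and 3+2 as pairs (adjusted p = 3.2e-07 by limma) all rows shared 1 variance. That p-value does not reflect the spread of RCF2 itself. Several of the 15 ways average the same values of all arrays, so their mean of 0.90 was fixed in advance. The 15 ways share arrays and are not independent of each other.

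**Figure D2:**
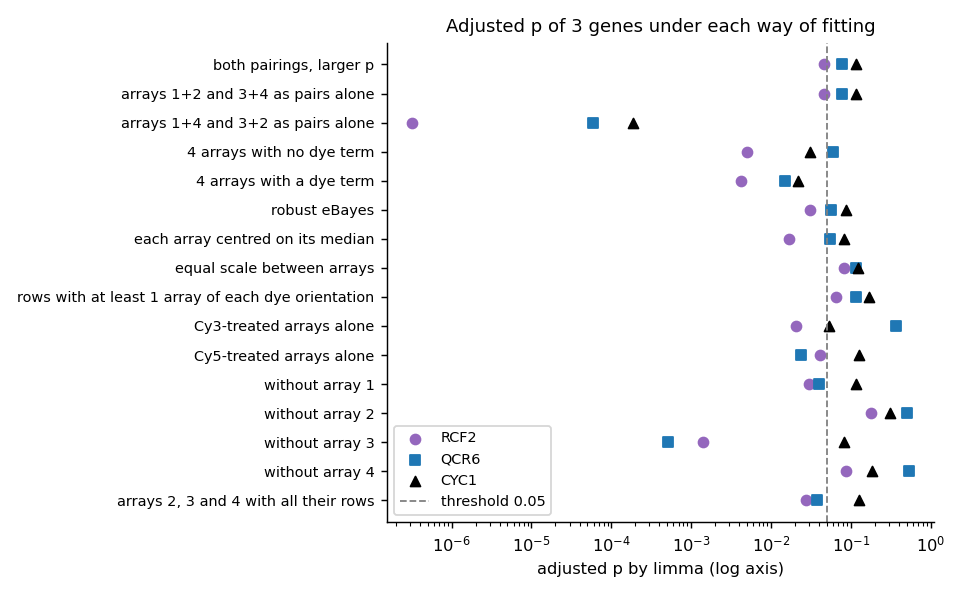
Adjusted p by limma (log axis) of RCF2, QCR6 and CYC1 under the fit used here (top row) and 15 other ways of fitting; the dashed line is the threshold of 0.05. RCF2 lies under the threshold in the top row and in 11 of the 15 others, QCR6 in 6 and CYC1 in 3. Arrays 1+2 and 3+4 as pairs alone repeat the values of the top row for these genes. The ways of fitting share arrays and are not independent of each other.

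Cytochrome c carries electrons from complex III to complex IV, and CYC1 encodes iso-1-cytochrome c, its main form in aerobic cells. CYC1 had log2 ratios of −0.580, −0.543, −0.995 and −0.674 on arrays 1 to 4. All 4 were below 0, with a mean of −0.70 ± 0.21, or 0.616-fold, and an adjusted p of 0.115 by limma, which did not pass. Only 12 of the 2715 tested rows had a lower mean. Both dye orientations gave values of this size, −0.61 on the Cy5-treated and −0.79 on the Cy3-treated arrays. CYC7, for the minor isoform of cytochrome c, was blank on array 1, had 0.24, 0.22 and −0.34 on the others and was left untested. CYC3, the enzyme that attaches haem to cytochrome c, had all 4 values above 0 (0.39, 0.34, 0.60 and 0.30), with a mean of 0.40 ± 0.13 that did not pass (adjusted p = 0.289 by limma).

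Complex III passes electrons from ubiquinol to cytochrome c. Of its 9 listed subunits 6 were tested, 0 were called, and all 6 means were below 0, with a median of −0.22. Among all tested rows 2.21% were called and 59.4% had a mean below 0. QCR6, the acidic hinge subunit that lies at cytochrome c1, had the lowest mean among the members. Its log2 ratios were −0.48, −0.91, −0.34 and −1.23 on arrays 1 to 4. The mean was −0.74 ± 0.41, or 0.599-fold, and did not pass (adjusted p = 0.0778 by limma). The 2 Cy5-treated arrays were both lower than the 2 Cy3-treated ones, with means of −1.07 and −0.41. The dye term for this gap did not pass after adjustment (adjusted p = 0.346 by limma). With arrays 1+4 and 3+2 as the dye-swap pairs QCR6 was called (adjusted p = 5.84e-05), and so was CYC1 (adjusted p = 0.000186), both by limma. That pairing alone called 277 of 2715 rows, against 60 when both pairings had to pass. Its variance prior had no finite degrees of freedom, so all rows shared 1 variance. The small p-values there do not reflect the spread of QCR6 or CYC1 itself.

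The core subunits COR1 and QCR2 had means of −0.15 ± 0.18 and −0.20 ± 0.34, and CYT1, for cytochrome c1, had −0.09 ± 0.34. These 3 had values of both signs. QCR7 and QCR8, small subunits of the complex, had means of −0.25 ± 0.32 and −0.24 ± 0.20, and QCR8 was below 0 on every array. The remaining subunits were blank on array 1. RIP1, the Rieske iron-sulfur protein, had −0.53 and 0.03 on arrays 3 and 4, QCR10 had −0.59 and 0.20 on the same arrays, and QCR9 had 0.35, −0.25 and −0.00 on arrays 2, 3 and 4. Each of these 3 had values on both sides of 0.

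Complex IV is cytochrome c oxidase, whose catalytic core is encoded in mitochondrial DNA and whose smaller subunits are listed here. Of 9 nuclear subunits 7 were tested, 0 were called and 6 had a mean below 0, with a median of −0.26. The shares over all tested rows were 2.21% called and 59.4% below 0. COX8, a small subunit, had −0.05, −0.26, −0.47 and −0.52 on arrays 1 to 4, and COX4, which is needed to assemble the enzyme, had −0.38, −0.10, −0.40 and −0.29. Of the 7 tested subunits these were the 2 with every value below 0, with means of −0.33 ± 0.21 and −0.29 ± 0.13 (adjusted p = 0.382 and 0.375 by limma). COX9 had both signs, at −0.50, 0.24, 0.05 and −0.81 on arrays 1 to 4. COX6 and COX13 had means of −0.12 ± 0.18 and −0.10 ± 0.21, each with 1 value above 0. COX12, a subunit at the intermembrane space side, had −0.25, −0.04 and −1.24 on arrays 2, 3 and 4, and COX7 had −0.21, 0.23 and −0.59. In a fit of arrays 2, 3 and 4 with all their rows, neither COX7, COX12 nor QCR9 was called.

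COX5A and COX5B encode alternative forms of subunit V, COX5A made in oxygen and COX5B in low oxygen. COX5A had −0.38, −0.11, −0.60 and 0.03 on arrays 1 to 4, a mean of −0.26 ± 0.28. COX5B had 0.32, 0.23, −0.23 and −0.28, a mean of 0.01 ± 0.31 whose sign depended on which arrays were used. The values of the isoforms overlapped. COX5B minus COX5A was 0.71, 0.34, 0.38 and −0.32, a mean of 0.28 ± 0.43 (exact two-sided sign-turn p = 0.5, the smallest for 2 cultures). As paralogues they can share labelled cDNA on the array, and how far they did was not tested.

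Yeast has no complex I, and single-protein NADH dehydrogenases take its place. NDI1, which oxidises NADH in the matrix, had 0.20, 0.20, −0.03 and 0.20 on arrays 1 to 4, and NDE1, which oxidises cytosolic NADH, had 0.38, 0.38, −0.26 and 0.17. Both were above 0 on arrays 1, 2 and 4 and below 0 on array 3. Their means of 0.14 ± 0.12 and 0.17 ± 0.30 did not pass (adjusted p = 0.666 and 0.66 by limma). With RCF2 and COX5B they made up the 4 tested members with a mean above 0. NDE2, the second external enzyme, was not a member and had a mean of −0.30 ± 0.30.

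The ATP synthase had 11 of 13 listed subunits tested, 0 called, and all 11 means below 0, with a median of −0.24. Over all tested rows, 2.21% were called and 59.4% of means were below 0. In the F1 head the median over 5 subunits was −0.26. ATP3, the gamma subunit that turns inside the head, had −0.15, −0.47, −0.77 and −0.32 on arrays 1 to 4. All 4 were below 0, and the mean of −0.43 ± 0.26 did not pass (adjusted p = 0.292 by limma). ATP16, the delta subunit, and ATP15, epsilon, which stand with gamma in the central stalk, had means of −0.36 ± 0.35 and −0.26 ± 0.31, each with array 2 above 0. The alpha and beta subunits of the catalytic ring, ATP1 and ATP2, were nearer to 0, with means of −0.17 ± 0.22 and −0.12 ± 0.14. Unequal ratios between the central stalk and the ring were not tested.

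In the peripheral stalk and Fo, 6 of 8 subunits were tested, with a median of −0.22 and means from −0.28 to −0.14. ATP14, subunit h, had −0.18, −0.17, −0.31 and −0.45, and ATP17, subunit f, had −0.08, −0.07, −0.43 and −0.21 on arrays 1 to 4. Every value of both was below 0, with means of −0.28 ± 0.13 and −0.20 ± 0.17. ATP7, subunit d, had a mean of −0.14 ± 0.29 with array 4 above 0, and ATP20, subunit g of the dimer interface, −0.26 ± 0.40 with array 1 above 0.

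ATP5, the oligomycin sensitivity-conferring protein that caps the stalk, and ATP4, subunit b of the same stalk, were split by dye. ATP5 had 0.31 and 0.25 on the Cy5-treated arrays 2 and 4, against −0.68 and −0.83 on the Cy3-treated arrays 1 and 3. ATP4 had 0.25 and 0.10 on the Cy5-treated arrays, against −0.65 and −0.44 on the Cy3-treated ones. Their 4-array means of −0.24 ± 0.60 and −0.19 ± 0.43 average values of opposite sign. Both Cy5-treated arrays above 0 with both Cy3-treated arrays below 0 was seen in 2 of 29 members, these 2, and in 8.25% of all tested rows. The opposite split was seen in 0 of 29 members and in 7.62% of rows. The dye term of a 4-array fit had an unadjusted p under 0.05 for ATP5 (gap of 1.03, Cy5-treated minus Cy3-treated), ATP4 (0.73) and QCR6 (−0.66), which is 3 of 29 against 13.3% of all rows. None of the 3 passed after adjustment (adjusted p of 0.283, 0.334 and 0.346 by limma), and 1 of the 2715 rows did (0.0368%).

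**Figure D3:**
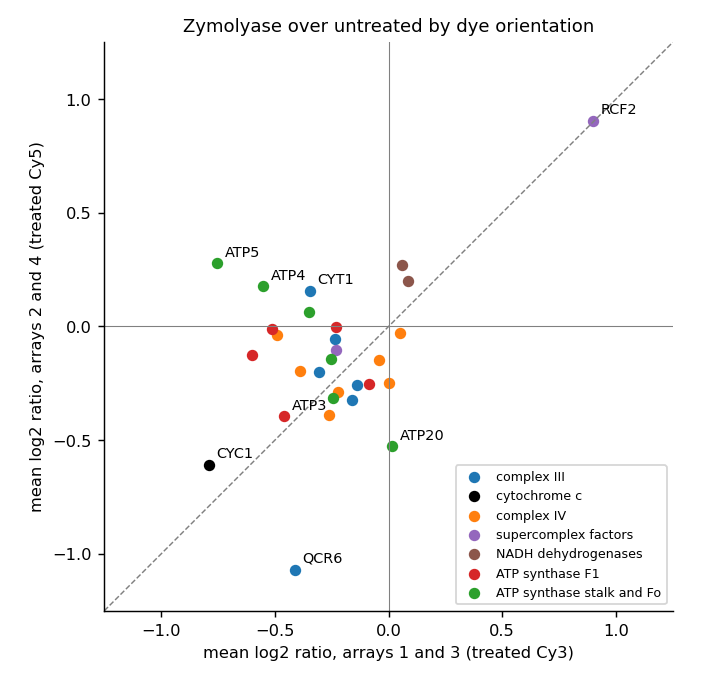
Mean log2 ratio (Zymolyase over untreated) of the 29 tested members on the 2 arrays with the treated RNA in Cy5 (y axis) against the 2 arrays with it in Cy3 (x axis), coloured by group; the dashed line marks equal values. RCF2 lies on the line at 0.90 and CYC1 near it, while ATP5 (0.28 and −0.75) and ATP4 lie far above the line and QCR6 (−1.07 and −0.41) below it.

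Set side by side, the median of the means was −0.22 for complex III, −0.26 for complex IV and −0.24 for the ATP synthase. The SD of their medians between arrays was 0.14, 0.12 and 0.17. All groups were read on the same arrays, so this SD does not measure how far the groups differ. On arrays 1 to 4 the median was −0.23, −0.10, −0.36 and −0.42 for complex III. It was −0.05, −0.11, −0.29 and −0.29 for complex IV and −0.18, −0.03, −0.44 and −0.21 for the ATP synthase. All of these medians lay below 0, and array 2 gave the value nearest to 0 for complex III and the ATP synthase. Complex III lay below complex IV on arrays 1, 3 and 4, although its median of means was the higher. The order of the groups thus changed between arrays, and differences between them were not tested. By dye orientation, the ATP synthase median was −0.13 on the Cy5-treated arrays and −0.35 on the Cy3-treated ones. The median gap per gene was 0.23 there, −0.01 in complex III and −0.07 in complex IV. These medians cover gaps of both signs, from −0.66 (QCR6) to 0.50 (CYT1) in complex III and −0.54 (ATP20) to 1.03 (ATP5) in the ATP synthase. Untested subunits are left out of them. Among these, RIP1, QCR9 and QCR10 of complex III had gaps of 0.55, 0.42 and 0.78. COX7 and COX12 of complex IV had −0.63 and −0.71, all with array 3 as the only Cy3-treated array. Whether these gaps differ between the complexes was not tested. The median over all tested rows was −0.06, −0.03, −0.06 and −0.05 on the same arrays. The median of the 29 members was −0.16, −0.07, −0.34 and −0.28, lower than that of all rows on each array. Every value below 0 on all 4 arrays was found in 10 members: 2 of complex III, 2 of complex IV, 4 of the ATP synthase, CYC1 and RCF1. These are 34.5% of the 29, against 15.2% of all tested rows. The members share a compartment and their arrays, and they are not independent of each other, so these shares are given without a test. Between subunits, the means had an SD of 0.23 in complex III, 0.12 in complex IV, 0.13 in F1 and 0.05 in the stalk and Fo.

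**Figure D4:**
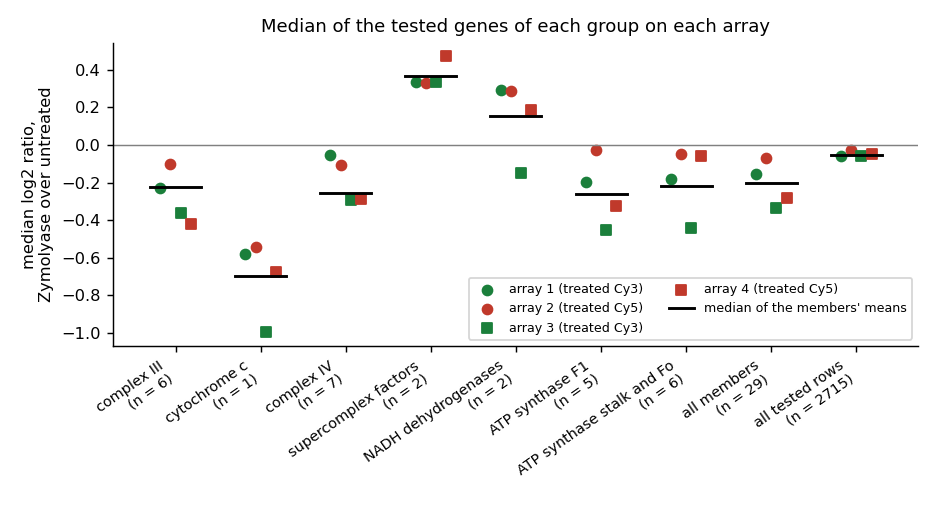
Median log2 ratio (Zymolyase over untreated, y axis) of the tested genes of each group on each array, with bars at the median of the genes' 4-array means and the number of genes below each name. Complex III, complex IV and both parts of the ATP synthase lie below 0 on every array, the supercomplex factors are the average of RCF2 above and RCF1 below 0, and all tested rows lie close to 0.

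Other genes of the respiratory chain were counted over 10 lists of 97 genes, of which 41 were tested. None was called in either direction by limma, against 2.21% of all tested rows. An unadjusted p under 0.05 by limma was reached by 2 (CYC3 and HAP1), against 14.7% of all tested rows. The median mean ratio of the 41 was −0.05, the same to 2 decimals as that of all rows. Of the 41 means 24 were below 0, against 59.4% of all tested rows. Of complex II, succinate dehydrogenase, which feeds electrons to ubiquinone, 2 of 4 subunits were tested. SDH4 had a mean of 0.28 ± 0.28 and SDH3 of −0.00 ± 0.44. Among 10 tested assembly factors of complex IV, of 24 listed, the median was −0.16, and COX16 had −0.42 ± 0.45. Of 8 complex III assembly factors 2 were tested, CBP3 (−0.28 ± 0.29) and CBP4 (−0.18 ± 0.20), and of 13 ATP synthase assembly genes and regulators 1, ATP11, which brings in the beta subunit (−0.05 ± 0.25). Of the untested genes on that last list, NCA2 had 0.51 and 1.20 on arrays 3 and 4. On arrays 2, 3 and 4 FMC1 had −0.34, −0.18 and −0.84, ATP23 −0.16, −0.51 and −0.03, and AEP1 0.28, 0.16 and 0.0027. ATP12, INH1, STF2 and AEP2 had values of both signs, and ATP22 had 0.12 on array 3 alone. The 7 subunits encoded in mitochondrial DNA had 0 rows in the table.

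Ubiquinone synthesis, with 8 of 10 genes tested, had a median of 0.03, and its largest mean ratios were COQ4 (0.20 ± 0.75) and COQ7 (0.17 ± 0.13). Haem synthesis, with 6 of 8 tested, had a median of −0.14, and HEM12 and HEM14 had −0.29 ± 0.17 and −0.19 ± 0.11. Both were below 0 on every array, as were HEM2 (−0.19 ± 0.14) and 15.2% of all tested rows. Carriers and porin, with 7 of 8 tested, had a median of 0.01, with MPC2, of the mitochondrial pyruvate carrier, at −0.29 ± 0.33 and the phosphate carrier PIC2 at 0.24 ± 0.42. The isoforms and electron donors had 2 of 5 tested, NDE2 and DLD1, a lactate dehydrogenase (0.15 ± 0.29).

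Of 10 regulators, 3 were tested, with a median of −0.12. HAP1, the haem-responsive activator of CYC1 and other respiratory genes, had 0.11 and −0.55 on the Cy5-treated arrays, against 1.35 and 1.20 on the Cy3-treated ones, and its mean of 0.53 ± 0.91 did not pass (adjusted p = 0.261 by limma). HAP5, a DNA-binding subunit of the Hap complex, had −0.18 ± 0.21. The other Hap subunits were blank on array 1. HAP4, which activates transcription, had 0.10, 0.10 and −0.28 on arrays 2, 3 and 4, HAP2 had 0.28, −0.59 and 0.37, and HAP3 had −0.22, −0.63 and −0.34, all below 0. ROX1, the repressor of hypoxic genes such as COX5B, had −0.58, −0.29 and −0.38 on the same arrays, also all below 0. MOT3 and MIG1 had both signs on these arrays, at −0.55, 0.10 and −0.22 and at −0.25, 0.34 and −0.08. HAP2, HAP3, HAP4, ROX1, MOT3 and MIG1 were not tested, and CAT8 had no value. How many of all rows were below 0 on arrays 2, 3 and 4 was not counted. HAP2, HAP3, HAP4, ROX1, MOT3, MIG1 and CYC7 were chosen after their values were seen.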

How the data were processed

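Two-colour arrays compared Zymolyase-treated with untreated parts of hog1 cultures. The authors deposited 1 normalized log2 ratio per row and array; the sources used here name no image analysis, background correction, normalization method, filter behind blank cells or numerator. Column medians were −0.06, 0.02, −0.08 and −0.03 as deposited. The base was read from the values: with the signs of arrays 2 and 4 turned, 9281 of 9281 values below 0 were base-2 logarithms of ratios with 4 decimals, where 56.5% would be by chance. Spot intensities were not used, so the number of arrays limits the precision. Of 6209 rows, 2 controls were dropped, and 5654 of 6207 yeast rows matched a locus tag of NCBI RefSeq assembly R64. No build is named for the arrays, so coordinates are not printed, and sequences were not used here.

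For both ways to form dye-swap pairs (arrays 1+2 and 3+4, or 1+4 and 3+2), pair means stood for the 2 cultures and entered limma 3.58.1 under R 4.3.3 as an intercept fit (lmFit, eBayes). Of both p-values the larger stood for the row, adjusted by Benjamini-Hochberg over 2715 rows and called under 0.05. The variance prior had 4.13 degrees of freedom in the first pairing and had no finite value in the other. The steps were tested on simulated data that had the same noise SD for all rows and no culture effect. Unequal spread between rows was therefore not tried. All members are accounted for. Of each other list, called genes and the 2 tested genes with the largest mean ratio in size are named. Where a list had under 2 tested genes, its rows with any value are named. Members and lists were chosen with earlier results of these data known. Nothing says more of the cultures than that they were different ones.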

Additional observations from a re-analysis of the deposited data

Results flagged for a closer look

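For 4 of 46 named genes a single array stood far from the rest, a number that chance puts near 2.3. QCR8 read −0.54 on array 4, while arrays 1 to 3 read −0.17 to −0.11. NDI1 was −0.0297 on array 3, against 0.20 on each of the others to 2 decimals. SDH4 was −0.14 on array 3, against 0.40 to 0.46, and DLD1 was −0.28 on array 1, against 0.29 to 0.30.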

How the results depend on the processing

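Arrays 2, 3 and 4 with all their rows, and the dye term as a result, were chosen after seeing the data. Called members numbered 1 and moved to 3 for arrays 1+4 and 3+2 as pairs, 2 with no dye term, 3 with a dye term, 2 for Cy5-treated arrays alone and 2 for arrays 2, 3 and 4. They were 0 with equal scale or with rows of each dye orientation, and 0 to 2 without 1 replicate array. Genes called numbered 60 of 2715 and moved to 277 for arrays 1+4 and 3+2, 97 without and 119 with a dye term, 31 at equal scale and 141 for Cy3-treated arrays. Leaving out 1 replicate array gave 22 genes (array 2) to 129 (array 3). There 1 culture mean is a single array, so its dye effect does not cancel.

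Of 435 member values under alternatives, 11 turned sign. On Cy5-treated arrays alone CYT1 became 0.16, COX5B −0.0266, ATP4 0.18, ATP5 0.28 and ATP7 0.0636, and on Cy3-treated arrays COX6 became 0.0027 and ATP20 0.0171. Without 1 replicate array COX5B ranged from −0.0936 to 0.109 and CYT1 from −0.246 to 0.00433, and COX5B was −0.0936 for arrays 2, 3 and 4. Of 255 values of other genes, 10 did: SDH3 became 0.0467 centred, 0.0316 at equal scale and 0.28 on Cy5-treated arrays, ATP11 0.0575 for arrays 2, 3 and 4, COQ4 −0.43 and PIC2 −0.11 on Cy3-treated and HAP1 −0.22 on Cy5-treated arrays. Without 1 replicate array SDH3 ranged from −0.119 to 0.211, ATP11 from −0.143 to 0.0575 and COQ4 from −0.0548 to 0.456. The F1 median became −0.46 on Cy3-treated and −0.126 on Cy5-treated arrays, where that of the stalk and Fo was −0.0386 and of the whole ATP synthase −0.126. The NADH dehydrogenase median was 0.0729 on Cy3-treated and 0.237 on Cy5-treated arrays. Without array 3 the median was −0.124 over members, −0.11 for the stalk and Fo and 0.256 for the NADH dehydrogenases, and that of complex IV ranged from −0.317 to −0.0823 without 1 replicate array. The causes were not tested. Each ratio pairs treated with untreated RNA on 1 array. No further pairing by replicate number was possible because the arrays form 1 group, and the dye-swap pairs are those fitted above.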
